A study of Homo sapiens with 32 samples.

Results

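TPD52 start sites were followed across 32 libraries of cap analysis of gene expression (CAGE), a method in which each tag marks the capped 5′ end of an RNA and so a position where transcription started. The members were every deposited start site on the minus strand of chromosome 8 within a window around TPD52 (Entrez gene 7163, also known as D52, N8L, PC-1 and PrLZ). The window took 4 of 19534 start-site clusters in the R1881 table and 3 of 13294 single positions in the table of LNCaP and BicR cells. The plus strand of the window held 0 sites in either table. Gene names are not part of the tables, so the assignment to TPD52 rests on position alone, in genome build hg19. The locus was chosen by measured values, with earlier results of these data known: its internal start site was among the leading responders to androgen in LNCaP. Dihydrotestosterone (DHT) against ethanol in LNCaP, and R1881 at 18, 48 and 72 h against 0 h, are therefore given as descriptions without a p-value.

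TPD52 (tumor protein D52) encodes a small coiled-coil protein of the D52 family, linked to vesicle trafficking and lipid storage, that is overexpressed in prostate and breast cancers. The gene lies in a region of 8q that is often gained in prostate cancer, and it has been described as androgen responsive in prostate cells. Its transcripts begin at more than 1 promoter. A transcript from an internal promoter lacks the first exon or exons of one from the upstream promoter and can encode a protein with a different amino terminus. Androgens act through the androgen receptor, a transcription factor that binds DNA when it has bound hormone, and bicalutamide is an antagonist of this receptor.

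The study measured where androgens change the start of transcription in prostate cancer cells. LNCaP is an androgen-responsive human prostate cancer line that carries a mutated androgen receptor. BicR is a further prostate cancer line, whose name and derivation the labels do not spell out. Cells of every group were first held for 3 days in medium with 2.5% charcoal/dextran treated serum, which removes steroid hormones. In the first experiment LNCaP received R1881, a synthetic androgen, and was sampled at 0, 3, 6, 12, 18, 48 and 72 h, with 2 libraries at each time. The sample characteristics give R1881 at 1 nM, while the protocol shared by all samples gives 10 nM for 24 h, and which applies is unresolved here. No vehicle library followed 0 h in that experiment, so R1881 and time in culture cannot be told apart. In the second experiment both lines were sampled before treatment and, at 6 h and 24 h, with ethanol as vehicle, with 10 nM DHT (the natural androgen), with 1 μM bicalutamide, or with DHT and bicalutamide together. Each of those 18 conditions had 1 library. The labels do not say whether replicates were separate cultures, so the p-values measure the spread between these libraries, which may be technical.

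Depth differed widely in the time course, from 128463 to 3837493 tags per library, and less in the second experiment, from 4139807 to 7753336. Levels are the deposited RPM values, tag counts scaled to a common library total. A count of 3 tags corresponded to 0.691 to 19.4 RPM in the time course and 0.326 to 0.601 RPM in the second experiment. The 4 shallowest libraries were replicate 1 at 3, 6, 12 and 18 h. Replicate 1 at 18 h (median Spearman correlation with the other libraries 0.599) and at 6 h (0.679) stood furthest from the rest of the time course. Among the libraries of replicate 2, those of 6 h (0.730) and 18 h (0.782) were lower than the others (0.830 to 0.857). In the second experiment BicR with DHT and bicalutamide at 6 h stood apart (0.893, against at least 0.943 for every other library). Intervals and limits on tag shares cover counting error only.

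The members fell into 3 groups by position. In the time course the upstream promoter consisted of a leading cluster of 262 bp at chr8:81083675-81083936, with 2301 tags over all libraries, and a minor cluster of 142 bp at chr8:81083279-81083420, with 58 tags. The internal promoter was a single cluster of 521 bp at chr8:80992579-80993099, with 8139 tags. A downstream cluster of 508 bp at chr8:80949965-80950472 held 149 tags. The named positions of the upstream and internal clusters lie 90734 bp apart. No hg19 annotation was used here, so exon, intron and UTR context is not given.

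**Figure D1:**
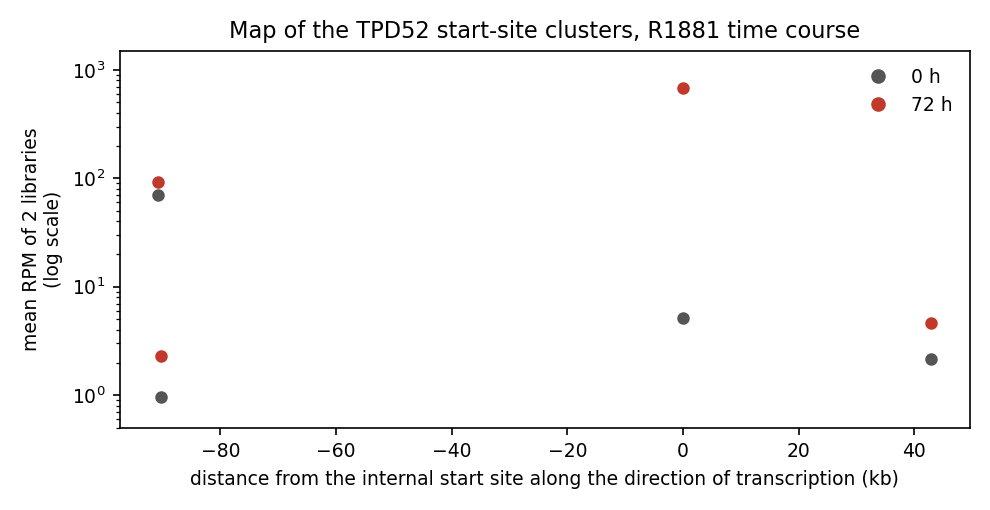
Each point is the mean level (RPM, log scale) of the 2 libraries at 0 h (grey) or 72 h (red) of R1881 for 1 of the 4 TPD52 start-site clusters. The horizontal axis is the distance in kb from the internal start site in the direction of transcription. The internal cluster had means of 5.18 and 678 RPM, and the leading upstream cluster had means of 70.8 and 92.2 RPM.

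The internal cluster was broad. Of the 19534 clusters, whose median width was 139 bp, 402 were wider. It held more tags than 98.3% of them, although 32 of its 8139 tags came from the libraries of 0 h. In the table of lines the same promoter is represented by 1 position, 35 bp inside the upstream end of the cluster, with 3491 tags. The upstream promoter is represented there by a position 138 bp inside the upstream end of its leading cluster (chr8:81083798, 21805 tags), and a downstream position (chr8:80949357) had 1061 tags. A cluster sums over its width, while whether the count of a position covers that base alone or a region around it is not stated. The tables were also scaled separately, so levels are not compared between them.

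In LNCaP the internal promoter went from a minor to the dominant start of the locus during R1881, while the upstream promoter varied far less. At 0 h the internal cluster had 2.37 RPM in replicate 1 (3 tags) and 7.99 RPM in replicate 2 (29 tags). After 3 h it had 25.02 and 109 RPM, and after 6 h 85.5 and 79.3 RPM. Both libraries of each time were above both libraries at 0 h. The 12 h libraries had 215 and 217 RPM and those of 18 h 356 and 204 RPM. Levels reached 397 and 623 RPM after 48 h, then 543 and 814 RPM after 72 h. The 4 libraries at 48 h and 72 h were all above those at earlier times. In the order of the 7 times the means were 5.18 ± 3.97, 66.8 ± 59.1, 82.4 ± 4.36, 216 ± 1.49, 280.4 ± 108, 510.2 ± 159 and 678 ± 192 RPM (SD, n = 2). The rank of the cluster within its library, by RPM without correction for width, went from 15811 and 11343 at 0 h to 199 and 87 at 72 h.

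Log2 changes against 0 h came from a fit of all 14 libraries with edgeR's quasi-likelihood test, adjusted over the 15999 clusters that passed the filter on low counts. A site is called when its adjusted p is under 0.05. Of the 4 members 3 were tested, since the minor upstream cluster did not pass the filter. At 12 h the internal cluster was 5.22 higher on the log2 scale (SE 0.751, edgeR adjusted p = 0.0120). Its 0 h libraries are also the baseline of the later times behind the choice of the locus, so this is no independent support. The internal cluster was 1 of 32 clusters called higher at that time, 0.2% of those tested, and the other 2 tested members were not called. The call at 12 h needs both 0 h libraries, since without either of them the baseline of every cluster is 1 library. The change was 4.74 without replicate 1 of 0 h and 6.37 without replicate 2 of 0 h. The call was kept when replicate 2 of both 6 h and 18 h was left out (5.19, edgeR adjusted p = 0.0110).

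At 3 h the internal cluster had a log2 change of 3.59 (SE 0.711, edgeR adjusted p = 0.304) and at 6 h of 3.91 (SE 0.730, edgeR adjusted p = 0.0674), neither of which was called. No cluster of the table was called at 3 h (0 of 15999, 0.0%) or at 6 h (0, 0.0%) in that fit. At an unadjusted p under 0.05 there were 264 of 15999 clusters at 3 h, a share below 0.05, and 2450 at 6 h, a share above it. DESeq2 called 9 higher and 0 lower at 3 h and 62 higher and 18 lower at 6 h. The replicate numbers pair the libraries across times. With the replicate number as a block the internal cluster rose at 3 h by 3.56 (edgeR adjusted p = 0.0104), as did 46 clusters (0.288%), and at 6 h by 3.94 (edgeR adjusted p = 0.00238), as did 427 clusters (2.67%). The 3, 6 and 12 h comparisons share their 0 h libraries with the later times that led to the choice of the locus.

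For the 18, 48 and 72 h libraries the log2 changes were 5.67 (SE 0.768), 6.52 (SE 0.788) and 6.95 (SE 0.802), given as a description. Leaving out replicate 2 of 0 h moved these to 6.88, 7.68 and 8.11. At 72 h the change ranked 20 of 15999 by size among rises. In replicate 2, whose 0 h library held 29 tags, the level relative to its own 0 h was 13.6-fold, 9.93-fold, 27.2-fold, 25.6-fold, 78.0-fold and 102-fold in the order of the later times, from 3 to 72 h. Between 48 h and 72 h the difference of 0.44 (SE 0.603) was not called (edgeR adjusted p = 1). No cluster was called in that comparison (0.0%). An unadjusted p under 0.05 was reached by 76 of 15999, a share below the 0.05 that the threshold allows without any change. DESeq2 called 0.

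The leading upstream cluster had 41.1 and 100.6 RPM at 0 h, then 43.8 and 84.1 RPM after 3 h. It had 103 and 92.2 RPM after 6 h and 93.0 and 107 RPM after 12 h. The 18 h libraries had 104 and 112 RPM, those of 48 h had 76.4 and 116 RPM, and those of 72 h had 94.3 and 90.0 RPM. Its 14 values spanned 2.82-fold, against 343-fold at the internal cluster, and the replicates of 0 h alone spanned most of that range. From 6 to 72 h replicate 1 had 1.86 to 2.52 times its own 0 h level at this cluster. Replicate 2 had 0.895 to 1.16 times its own. The log2 changes of the leading upstream cluster against 0 h were, from 3 to 72 h, -0.16, 0.51, 0.48, 0.70, 0.49 and 0.43, with an SE of 0.486 to 0.503. None was called in the edgeR fit.

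**Figure D2:**
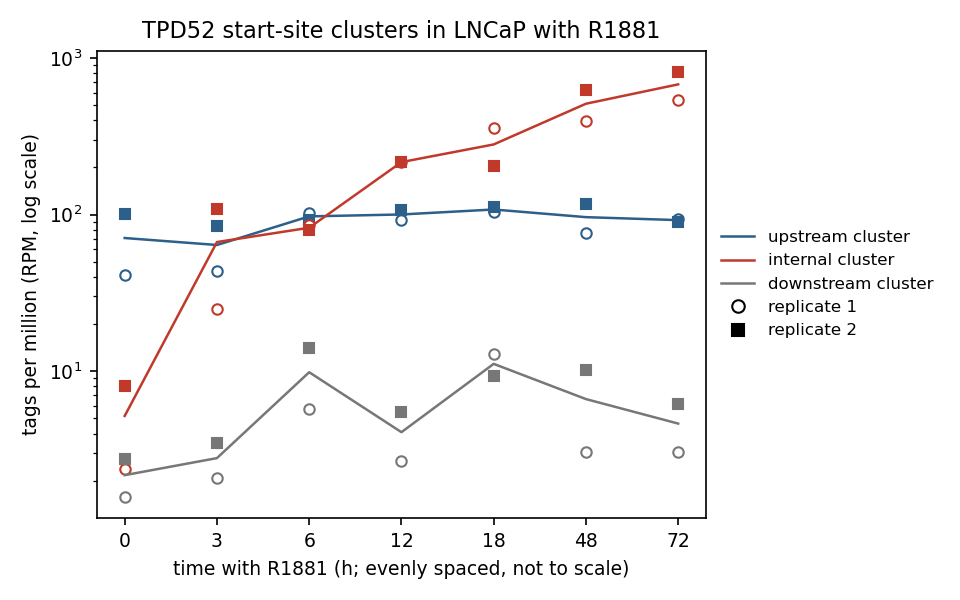
Levels (RPM, log scale) at the upstream, internal and downstream TPD52 clusters in LNCaP at 7 times of R1881. Open circles are replicate 1, filled squares replicate 2, and lines join the means of 2 libraries. The upstream and internal means lay close together at 3 h (63.9 and 66.8 RPM) and 6 h (97.4 and 82.4 RPM). At 3 h the internal value was below the upstream value in replicate 1 and above it in replicate 2. From 12 h on every internal value, the lowest being 204 RPM, was above every upstream value, the highest being 116 RPM.

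The weaker sites carried few tags. The minor upstream cluster had 0 to 11 tags per library and 0 to 6.48 RPM, with 0 tags in 4 of 14 libraries. Those 4 were replicate 1 at 0, 3, 6 and 12 h, where 3 tags would have been 2.37 RPM or more. The downstream cluster had 1.58 and 2.75 RPM at 0 h and its highest values at 6 h (5.70 and 13.999 RPM) and 18 h (13.0 and 9.32 RPM), from 1 to 38 tags per library. Its log2 change was 2.44 at 6 h (SE 0.800, edgeR adjusted p = 0.206, and 2.38 with edgeR adjusted p = 0.0440 under the replicate block) and 1.17 at 72 h (SE 0.769). Of the 25 tags behind the 6 h value 24 came from replicate 2, and without that library the change was 1.17 (edgeR adjusted p = 0.880).

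Because the promoters are read in the same library, the share of locus tags at the internal promoter does not depend on scaling. It was 5.26% (3 of 57 tags, exact 95% binomial interval 1.10 to 14.6%) in replicate 1 and 7.06% (29 of 411, 4.78 to 9.98%) in replicate 2 at 0 h. It was 35.3% (19.7 to 53.5%) and 54.4% (50.0 to 58.7%) at 3 h, and 44.1% (27.2 to 62.1%) and 41.8% (36.4 to 47.4%) at 6 h. The intervals at 3 h and 6 h lie above both at 0 h, and the widths for replicate 1 follow from its 34 locus tags at each of these times. The share was 69.2 and 65.2% after 12 h, and 74.3 and 62.3% in the 18 h libraries. It was 83.1 and 82.9% in those of 48 h, and 84.5% (81.5 to 87.2%) and 89.2% (88.2 to 90.1%) in those of 72 h. In means the share went from 6.16% ± 1.27 at 0 h to 86.8% ± 3.29 at 72 h (SD, n = 2). The sum of all TPD52 sites went from 79.2 ± 48.2 to 777 ± 191 RPM (SD, n = 2) over the same time. In bulk libraries a change in the number of cells that use a promoter and a change in RNA per cell cannot be told apart.

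**Figure D3:**
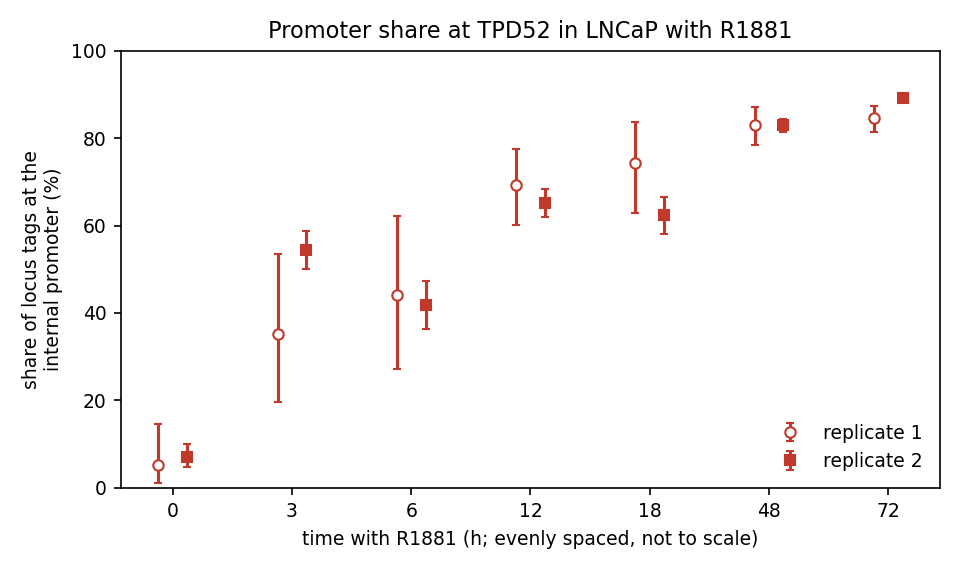
Percent of TPD52 locus tags at the internal promoter in each LNCaP library over 7 times of R1881, with exact 95% binomial intervals as bars (counting error only). Open circles are replicate 1 and filled squares replicate 2. The share was 5.26 and 7.06% at 0 h and 84.5 and 89.2% at 72 h.

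In the second experiment the internal position was low before treatment and with ethanol in both lines, and higher than that in every library with DHT. In LNCaP it had 1.87 RPM before treatment, 5.19 and 3.41 RPM with ethanol at 6 h and 24 h, and 41.3 and 40.8 RPM with DHT. With DHT and bicalutamide together it had 32.0 RPM at 6 h and 15.3 RPM at 24 h, and with bicalutamide alone 5.21 and 4.37 RPM. The bicalutamide and ethanol values of LNCaP overlapped, and all 4 libraries with DHT were above all those without it. In BicR the level was 6.76 RPM before treatment, 4.81 and 2.41 RPM with ethanol, and 58.8 and 86.5 RPM with DHT. With DHT and bicalutamide BicR had 27.9 RPM at 6 h and 60.5 RPM at 24 h, and with bicalutamide alone 34.0 and 27.1 RPM. Thus in BicR the libraries with bicalutamide alone were above ethanol and overlapped those with DHT and bicalutamide.

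The upstream position varied far less, from 130 to 207 RPM over the 18 libraries. In LNCaP it had 174.6 ± 6.75 RPM with ethanol and 164 ± 13.5 RPM with DHT (SD, n = 2, 6 h and 24 h). In BicR it had 141 ± 9.12 RPM with ethanol, 181 ± 26.6 with DHT, 151 ± 25.8 with bicalutamide and 174 ± 47.2 with both. The upstream position was above the internal position in all 18 libraries, although how much of each promoter's width these counts cover is not stated. The downstream position ranged from 5.24 to 12.5 RPM and was highest in BicR at 24 h with DHT (12.5 RPM) and with DHT and bicalutamide (12.1 RPM).

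**Figure D4:**
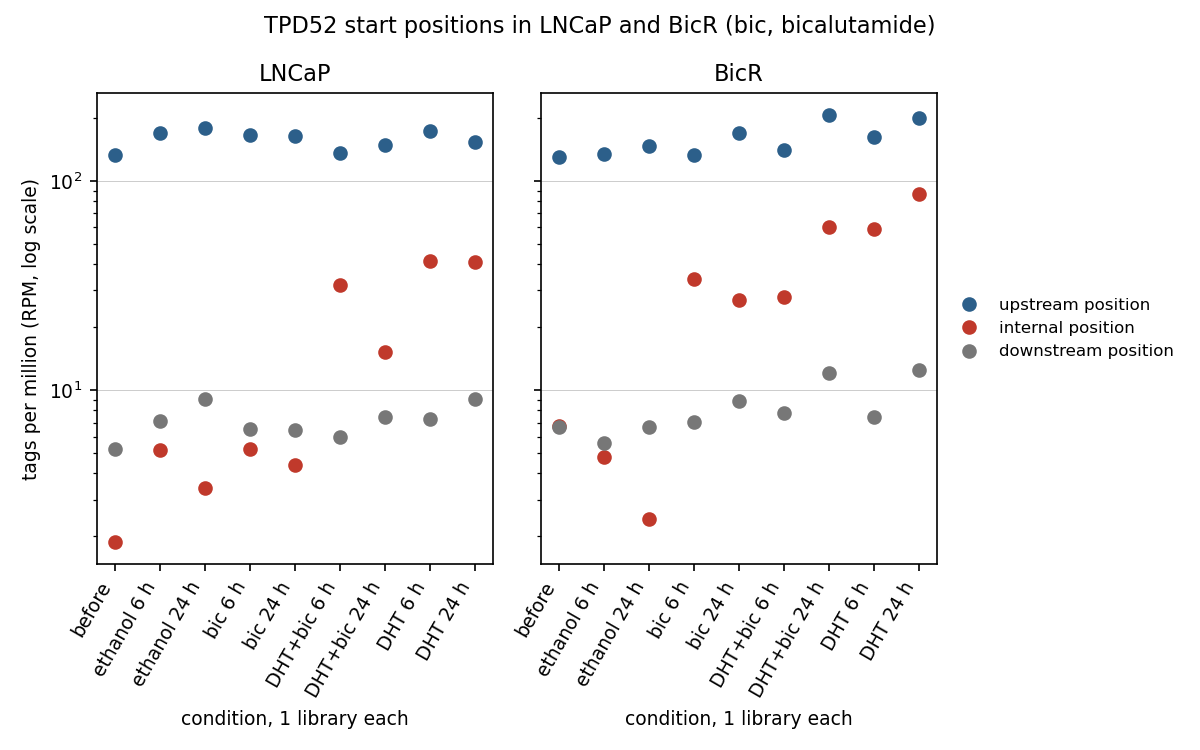
Levels (RPM, log scale) at the upstream, internal and downstream TPD52 positions in LNCaP (left) and BicR (right), 1 library per condition. The internal position was below 10 RPM in all LNCaP libraries without DHT. In BicR it had 34.0 and 27.1 RPM with bicalutamide alone, against 4.81 and 2.41 RPM with ethanol.

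Treatment effects were fitted over the 16 treated libraries with edgeR, adjusted over the 13214 positions that passed the filter, which included all 3 members. The 6 h and 24 h libraries stood in for replicates, so the spread behind SE includes how far effects differed between these times. That spread was estimated over both lines and all treatments with information shared across positions, and SE also carries counting error. In BicR the internal position rose with DHT by 4.27 on the log2 scale (SE 0.443, edgeR adjusted p = 0.000878), ranking 22 of 13214, where 294 positions (2.22%) were called higher. Without the 6 h ethanol library this was 5.10, and without the 24 h ethanol library 3.62, with the call kept in both. The other 2 members were not called, with 0.33 upstream (SE 0.130, edgeR adjusted p = 0.242) and 0.65 downstream (SE 0.240, edgeR adjusted p = 0.196). In LNCaP, as a description, the changes with DHT were 3.33 (SE 0.439) at the internal position, -0.04 (SE 0.129) upstream and 0.05 (SE 0.233) downstream. The BicR effect minus the LNCaP effect of DHT was 0.94 (SE 0.675) at the internal position, given without a test because it uses the contrast behind the choice.

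Bicalutamide without DHT gave a rise at the internal position in BicR. The log2 change against ethanol was 3.14 (SE 0.454, edgeR adjusted p = 0.0272), ranking 19 of 13214, where 21 positions (0.159%) were called higher. The change was 3.99 without the 6 h ethanol library, 2.51 without the 24 h ethanol library and 2.54 without the 6 h bicalutamide library. The call was lost in each of these fits, which leave 1 library in a group. It was also lost without the time term (3.13, edgeR adjusted p = 0.0795), where 0 of 13214 positions were called. In LNCaP the same comparison gave 0.21 (SE 0.546, edgeR adjusted p = 1.00), where 1 position (0.00757%) was called. The ethanol libraries of LNCaP are those of the DHT contrast that led to the choice. The BicR effect minus the LNCaP effect of bicalutamide was 2.93 (SE 0.733), ranking 17 of 13214. It was not called (unadjusted p = 0.00172, edgeR adjusted p = 1). No position was called for that difference in edgeR (0, 0.0%). An unadjusted p under 0.05 was reached by 415 of 13214, a share below the 0.05 that the threshold allows without any change. DESeq2 called 8 higher and 1 lower, the internal position among them (2.91, DESeq2 adjusted p = 0.00363). The upstream changes with bicalutamide were 0.15 in BicR (SE 0.130) and -0.03 in LNCaP (SE 0.129), neither called.

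With DHT and bicalutamide together the internal position of BicR rose against ethanol by 3.59 (SE 0.453, edgeR adjusted p = 0.00255), where 256 positions (1.94%) were called higher. This was 4.09 without the library that stands apart, 4.40 without the 6 h ethanol library, 2.93 without the 24 h ethanol library and 2.90 without the 24 h library of both agents, called in each case. In LNCaP the change was 2.50 (SE 0.459, edgeR adjusted p = 0.156), where 1 position (0.00757%) was called. That comparison uses the LNCaP ethanol libraries, the baseline of the DHT contrast behind the choice of the locus, so a rise against them is no independent support.

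Adding bicalutamide to DHT gave lower values at the internal position in both lines that were not called. The log2 difference from DHT alone was -0.83 in LNCaP (SE 0.356, edgeR adjusted p = 1) and -0.68 in BicR (SE 0.336, edgeR adjusted p = 0.620). In LNCaP 0 positions were called (0.0%). An unadjusted p under 0.05 was reached by 243 of 13214, a share below the 0.05 that the threshold allows without any change. DESeq2 called 0. In BicR 19 positions (0.144%) were called, but 0 without the library that stands apart, and 764 higher and 152 lower without the 24 h library of both agents. The BicR difference was -0.21 without the first of these (edgeR adjusted p = 1) and -1.40 without the second (edgeR adjusted p = 0.0534). The LNCaP DHT libraries of this comparison are among those behind the choice of the locus. By time, the internal level with both agents relative to DHT alone was lower at 6 h and at 24 h in each line, with the larger gap at 24 h in LNCaP (15.3 against 40.8 RPM) and at 6 h in BicR (27.9 against 58.8 RPM).

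**Figure D5:**
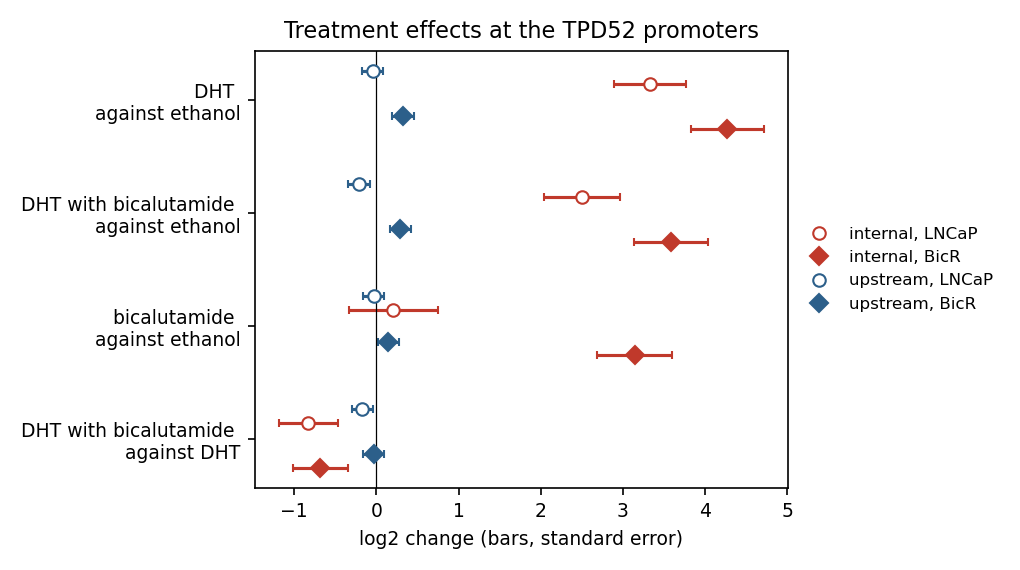
Log2 changes from the edgeR fit for 4 treatment comparisons (rows), with bars for the standard error. Red marks are the internal position and blue marks the upstream position, with open circles for LNCaP and filled diamonds for BicR. At the internal position bicalutamide against ethanol was 3.14 in BicR and 0.21 in LNCaP, and the upstream values lay between -0.21 and 0.33.

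Locus tags are here those of the single positions, so their shares are not compared with those of the clusters. The share at the internal position, which needs no scaling, was also low before treatment and with ethanol in both lines. In LNCaP it was 1.33% before treatment, 2.85 and 1.78% with ethanol at 6 h and 24 h, and 2.93 and 2.49% with bicalutamide. With DHT it was 18.6 and 20.0%, and with both agents 18.3 and 8.89%. In BicR it was 4.71% before treatment, 3.32 and 1.54% with ethanol, 19.5 and 13.2% with bicalutamide, 25.7 and 28.9% with DHT, and 15.8 and 21.6% with both. The exact 95% intervals of BicR with bicalutamide (17.5 to 21.6% at 6 h, 11.6 to 14.8% at 24 h) lay above those of BicR with ethanol (2.35 to 4.55% and 0.915 to 2.42%).

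For a comparison over libraries, the log2 ratio of internal to other locus tags was used, with 0.5 tags added to both sides. In BicR it averaged -1.77 with DHT present (SD 0.483, n = 4) and -3.89 with DHT absent (SD 1.82, n = 4), a difference of 2.12. In an exact two-sided permutation test this gave p = 0.0571, where 4 against 4 libraries allow no p below 0.0286. The 4 libraries of a side are different conditions, permuted without regard to time or bicalutamide, so the SD and p include differences between conditions. With DHT absent the ratios were -4.85 and -5.96 with ethanol, and -2.04 and -2.72 with bicalutamide (6 h and 24 h). The sides overlapped because BicR with bicalutamide alone at 6 h (-2.04) was above BicR with both agents at 6 h (-2.41). In LNCaP, as a description, the means were -2.41 (SD 0.632) and -5.29 (SD 0.334), and the sides did not overlap.

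Between the lines, the ratio was higher in BicR in 7 of 9 matched conditions, by a mean of 1.10 (SD 1.18). An exact two-sided sign-flip permutation test over the 9 pairs gave p = 0.0234, where the smallest p possible is 0.00391. The unpaired exact comparison gave p = 0.173. The pairs include the LNCaP DHT and ethanol libraries behind the choice of the locus, and conditions with 1 library each stand in for replicates of a line, so the p-value is not independent of the choice. The difference was largest with bicalutamide alone, at 2.99 at 6 h and 2.56 at 24 h. It was 1.82 before treatment, 0.60 and 0.71 with DHT, 0.23 and -0.20 with ethanol, and -0.26 and 1.49 with both agents. The pairs in which LNCaP was higher were ethanol at 24 h and both agents at 6 h, the latter holding the library that stands apart.

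In the fit, which uses the same LNCaP libraries, the BicR minus LNCaP difference with ethanol was -0.14 at the internal position (SE 0.585, edgeR adjusted p = 0.911) and -0.24 upstream (SE 0.130, edgeR adjusted p = 0.251), where 1471 positions (11.1%) were called in either direction. Averaged over the 4 treatments, the internal position was higher in BicR by 1.10 (SE 0.222, edgeR adjusted p = 0.00169), but 6202 positions (46.9%) were called in that comparison. The upstream difference over the 4 treatments was 0.02 (SE 0.0647) and was not called.

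The sites whose profile was most like that of the internal promoter were named by Pearson correlation of log2 CPM over the libraries of a table, among sites with a mean of at least 10 RPM. These correlations are descriptions over libraries that share treatments and differ in depth. In the time course (9909 clusters, 14 libraries) the most alike were chr2:9143690-9143917 on the minus strand (r = 0.976, 17.4 to 459 RPM) and chr1:8086214-8086412 on the minus strand (r = 0.951). The least alike were chr19:6502240-6502439 on the minus strand (r = -0.930) and chr1:151345137-151345244 on the minus strand (r = -0.905). In the lines (10569 positions, 18 libraries) the most alike were chr5:113697781 on the plus strand (r = 0.956, 10.3 to 75.2 RPM) and chr19:51412635 on the minus strand (r = 0.946, 49.7 to 219.7 RPM). The least alike were chr2:172291281 (r = -0.940) and chr5:134369890 (r = -0.902), both on the minus strand. No site was among those named in both tables. The ranking depends on the measure: by Spearman correlation the chr1 cluster at 8086214 ranked 136 and the least alike clusters 9871 (chr19) and 9869 (chr1) of 9909, and the chr19 position ranked 29 of 10569.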

How the data were processed

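Per the labels' protocols, capped RNA was selected by cap trapping after first-strand synthesis from total RNA and sequenced on a HeliScope. The build was hg19, per the submitters' processing notes, and the aligner, cluster caller and filters are not given in the sources used here. The deposited tag counts are whole numbers, per the file headers. The deposited RPM values are each library's counts times 1 factor, and the tables' tags were 75.6 to 90.1% of the total that factor implies.

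Members were all minus-strand rows of chromosome 8 with a named position from 80945000 to 81145000. Internal sites lay within 5000 bp of position 80993064, and upstream sites from 81050000 on. The members and lists were chosen with earlier results of these data known. Named sites were all members, and the 2 most and 2 least alike sites of each table (TMM, prior count of 2). Tables pair no gene names, so cell type markers could not be checked.

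Counts were tested with edgeR 4.0.16 in R 4.3.3 (TMM, filterByExpr with a minimum count of 10, quasi-likelihood F test, Benjamini-Hochberg over the whole table), tested on simulated data, with DESeq2 1.42.0 as an alternative. SE is the size of the log2 change over the square root of F. The time course had a coefficient per time, and the lines a coefficient per line and treatment with a 24 h against 6 h term per line. Exact permutation tests used scipy 1.17.1. After subtraction of each time's mean, libraries with the same number correlated at 0.154 to 0.588 in 21 of 21 pairs of times (12761 sites), so the numbers pair the libraries, although the labels do not say what they stand for. Alternatives covered normalization, filter, block, time term, shallow or outlying libraries and each library left out. No sequence of this locus is printed.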

Additional observations from a re-analysis of the deposited data

Results flagged for a closer look

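The log2 ratio of internal to other TPD52 tags in LNCaP with DHT and bicalutamide at 24 h was -3.35, while the other 3 LNCaP libraries with DHT present lay between -2.15 and -2.001. Its distance from the nearest of them was 0.888 of the range of the 4 libraries. This is beyond the limit that chance passes in about 1 of 20 groups of like libraries, and 8 groups were checked. The 4 libraries mix DHT alone with both agents and 6 h with 24 h, so that rate need not hold here. In LNCaP with both agents at 24 h the internal position had 117 tags and 15.3 RPM. The upstream position had 149 RPM there, within the range of the other LNCaP libraries.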

How the results depend on the processing

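The internal promoter had 3 and 29 tags at 0 h, the 2 libraries per time and the 1 library per condition set the errors, and 3 tags were worth up to 19.4 RPM in the shallowest library. At 3 h of R1881 the change at the internal cluster was 3.62 with DESeq2, and at 6 h it was 4.06 with DESeq2, 3.99 without the filter and 4.01 without the 4 shallowest libraries, each past the threshold. The labels do not say what the replicate number stands for. With it as a block the change was 3.56 at 3 h and 3.94 at 6 h, both past the threshold. At 12 h it was 5.31. Of the members' other calls the block changed only that of the downstream cluster at 6 h (2.38). Leaving out 1 library gave 2.04 to 4.80 for the libraries of 3 h, 3.42 to 5.23 at 6 h, 4.74 to 6.37 at 12 h, 5.16 to 6.88 at 18 h, 6.05 to 7.68 at 48 h and 6.49 to 8.11 at 72 h. In BicR, bicalutamide against ethanol was 3.13 without the time term and 2.51 to 3.99 with 1 library left out. In LNCaP, both agents against ethanol gave 2.51 with DESeq2 and 2.50 without the library that stands apart, past the threshold in each. The difference between lines in the bicalutamide effect was 2.91 with DESeq2. With 1 library left out, the difference between lines was 0.28 to 1.75 for DHT, 0.39 to 1.89 for both agents against ethanol and -0.57 to 0.65 for both agents against DHT. The line difference with ethanol (-0.14) ranged from -0.97 without the 6 h to 0.50 without the 24 h BicR ethanol library. The mean difference over the 4 treatments, a different quantity, was 1.10, and the promoter ratio between lines stayed at 1.10 unpaired but missed the threshold (exact permutation p = 0.173). The cause of these shifts was not tested. Comparisons given without a test were judged by the size of the value alone. Among differences that were not called, 72 h against 48 h went from 0.44 to -0.0070 without replicate 2 of 72 h.

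Counts of called sites over the tables moved more: 0 to 46 at 3 h, 0 to 1318 at 6 h, 0 to 311 at 12 h, 166 to 756 for DHT in BicR, 0 to 116 for bicalutamide in BicR, 64 to 845 for both agents against ethanol in BicR and 0 to 916 for both agents against DHT in BicR. Without TMM the median change over all clusters was -0.12 at 6 h and -0.21 at 18 h.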

Other observations

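Other start sites near TPD52 were read as local background. Within 1 Mb of the window the R1881 table held 6 other chromosome 8 clusters and the table of lines 5 positions. The nearest minus-strand cluster past the downstream end, chr8:80942440-80942552, had log2 changes of -0.74 at 48 h (SE 0.516) and -0.62 at 72 h (SE 0.515) of R1881. The 3 tested plus-strand clusters had positive changes at the same times: 1.22 and 1.34 at chr8:81397742-81398094, 1.19 and 2.19 at chr8:81398392-81398651, and 2.04 and 2.13 at chr8:81399611-81400061, the last with 3.56 at 6 h. None of these was called in the edgeR fit. With DHT in BicR, the plus-strand position chr8:81397853 rose by 1.31 (SE 0.276, edgeR adjusted p = 0.0222) and the minus-strand position chr8:82024302 fell by 0.99 (SE 0.243, edgeR adjusted p = 0.0462), while the other 3 were not called. In LNCaP with DHT the same positions had changes of 1.00 and -0.51.

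Before treatment the internal position had 57 tags (6.76 RPM) in BicR and 10 tags (1.87 RPM) in LNCaP, each from 1 library. The shares of locus tags were 4.71% (exact 95% interval 3.59 to 6.06%) and 1.33% (0.640 to 2.44%).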
